A study of Mus musculus with 16 samples.

Results

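The transcripts of 10 genes of the neuromuscular junction were followed in quadriceps muscle of mice with and without the histone deacetylase HDAC3. The genes were chosen by name and comprised 4 subunits of the muscle acetylcholine receptor (Chrna1, Chrnb1, Chrnd, Chrne), the receptor kinase Musk with its partners Lrp4 and Dok7, the clustering protein Rapsn, and acetylcholinesterase (Ache) with its collagen tail Colq. All 10 were found among the 24354 rows of each deposited table. The mice were C57BL/6 males of 4 months, either wild type or HDAC3-KO. Muscle was taken at rest or 2 h after the last of 3 treadmill bouts of 1 h at 10 m/min, separated by pauses of 1 h. Each of the 4 groups (wild type at rest, HDAC3-KO at rest, wild type after running, HDAC3-KO after running) held 3 RNA-seq libraries. The labels name neither the deleted part of Hdac3, nor a Cre driver, nor alleles carried by the wild-type mice, and nothing in them ties a library to its own animal, so p-values measure the spread between these libraries, which may be technical.

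The neuromuscular junction is the synapse between a motor axon and a muscle fibre. Agrin released by the nerve binds LRP4, which activates the kinase MuSK together with the adaptor DOK7, and rapsyn then packs acetylcholine receptors into the membrane under the nerve ending. The adult receptor is built of alpha, beta, delta and epsilon subunits, and the fetal receptor carries gamma (Chrng) in place of epsilon. Acetylcholinesterase, anchored in the synaptic cleft by ColQ, ends each signal. These genes are known to be transcribed mainly by the few nuclei beneath the synapse, and several respond in the whole fibre when the nerve is cut. In these whole-muscle samples fewer synaptic nuclei and less RNA per nucleus cannot be told apart.

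Values were FPKM, fragments per kilobase of transcript scaled to the depth of the library, which allow levels of different genes to be compared. The lowest values of the tables moved in steps, and from those steps the FPKM value of 1 read in each library was recovered relative to the others. It differed by up to 1.61-fold between the 12 libraries, where a higher value means fewer reads. At rest, relative to wild-type library 1, it was 1.51, 1.202 and 1.48 in the knockout libraries and 1, 1.203 and 0.98 in the wild-type libraries, so that 2 of 3 knockout libraries were shallower than every wild-type library. Whole reads came out, to within 0.1 reads, for 6563 of the 10194 genes with a mean of at least 1 FPKM in both tables, and these genes held between 661955 and 1055749 reads per library. Hdac3 stood between 23.7 and 33.3 FPKM in 6 of 6 wild-type samples and between 4.13 and 8.16 FPKM in 6 of 6 knockout samples, in keeping with the labels. In wild-type library 2 at rest the 7 immune cell markers summed to 519 FPKM and in knockout library 3 after running to 374 FPKM, against 29.9 to 64.6 FPKM in the other 10 libraries. Most of these 2 sums came from S100a8 and S100a9, at 240 and 222 FPKM in the first library and 156 and 148 FPKM in the second. Without the first, the log2 differences at rest were -0.64 for Chrnb1, -0.85 for Musk and 0.89 for Chrne, and without the second that of Chrnb1 after running was -0.85; none of these then passed by limma, each group having 2 or 3 libraries.

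The junction genes were weakly represented in whole quadriceps. In wild-type muscle at rest the order of mean FPKM was Chrnb1 (13.5), Rapsn (9.60), Ache (7.21), Musk (6.5), Chrne (4.59), Lrp4 (3.26), Dok7 (3.21), Chrna1 (1.83), Colq (0.988) and Chrnd (0.452). The libraries of neighbours in this order overlapped from Chrnb1 down to Musk and from Lrp4 down to Chrna1, and were apart between Musk and Chrne, Chrne and Lrp4, Chrna1 and Colq, and Colq and Chrnd. In the resting knockout Chrne led with a mean of 8.52 FPKM, in wild type after running Chrnb1 with 15.9 FPKM, and in the knockout after running Musk with 8.59 FPKM, and Chrnd was lowest in all 4 groups. Whole reads were recovered for 8 of the 10 genes, all except Musk and Lrp4, and ranged from 3 to 14 reads per library for Chrnd up to 59 to 199 reads for Chrnb1. Counting error alone therefore gave a coefficient of variation (CV) of 8.02% to 12.2% for Chrnb1 and of 32.2% to 42.2% for Chrnd. Of the 32 combinations of these 8 genes with the 4 groups, 11 varied between libraries by more than 2 times their counting error and 10 by less than it. Chrnd had a mean under 1 FPKM in both tables and was not tested.

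**Figure D1:**
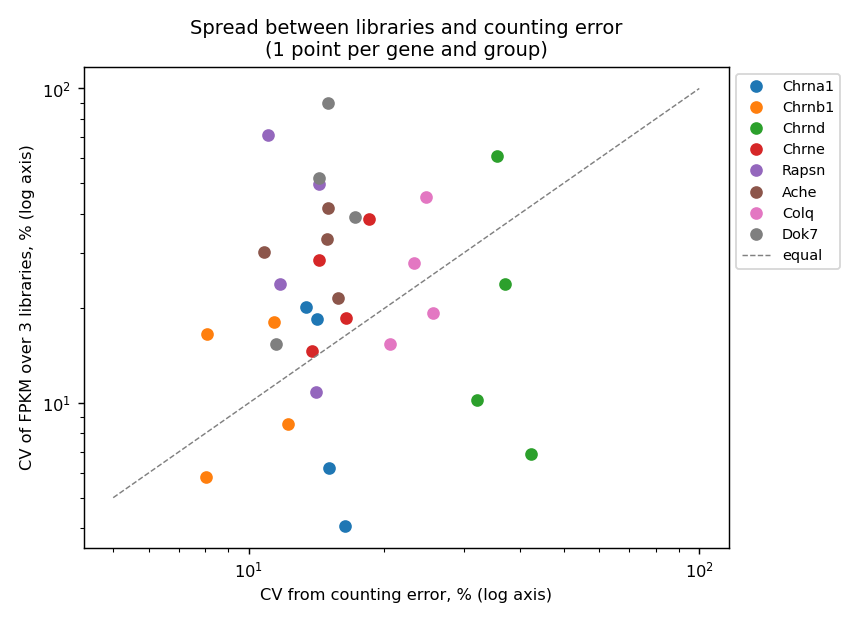
For the 8 junction genes with recovered reads, the CV of FPKM over the 3 libraries of a group (vertical axis, percent, log scale) is plotted against the CV that counting error alone gives (horizontal axis, percent, log scale), with 1 point per gene and group and a dashed line where they are equal. Rapsn and Dok7 in wild type at rest lie farthest above the line, at 71.0% against 11.0% and 89.7% against 15%, whereas Chrna1 in both wild-type groups lies below it.

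The comparison of genotypes asked whether loss of HDAC3 altered junction transcripts, separately at rest and after running. At rest the receptor subunit Chrnb1 and the kinase Musk fell in the knockout and the subunit Chrne rose. After running Chrnb1 fell again. These were the genes with an adjusted p at or under 0.05 by limma on log2(FPKM + 1), with Benjamini-Hochberg adjustment over all genes tested. At rest this made 3 of the 9 tested junction genes, where 3.65% of all 10501 genes passed, and after running 1 of 9, where 2.71% of 10360 genes passed. By the q of the authors' deposited table, with the same threshold, 5 junction genes passed at rest, against 10.8% of the genes tested there, and 3 after running, against 9.57%. These were Chrna1, Chrnb1, Chrne, Musk and Colq at rest, and Chrnb1, Chrne and Musk after running. The median of the absolute log2 difference was 0.50 over the 9 genes at rest and 0.18 over all genes. After running it was 0.51 over the 9 genes and 0.18 over all genes. Genes of like level and spread were not compared, so the part of noise in the larger medians was not tested.

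The libraries of the genotypes were apart for 5 of the 10 junction genes at rest and for 3 after running, where 26.1% and 24.6% of all tested genes were apart (14.2% with the knockout higher and 11.9% lower at rest, 12% higher and 12.6% lower after running). At rest Chrna1, Chrne and Colq were higher in every knockout library and Chrnb1 and Musk lower. After running Chrna1 was again higher in every knockout library, and Chrnb1 and Musk were again lower.

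**Figure D2:**
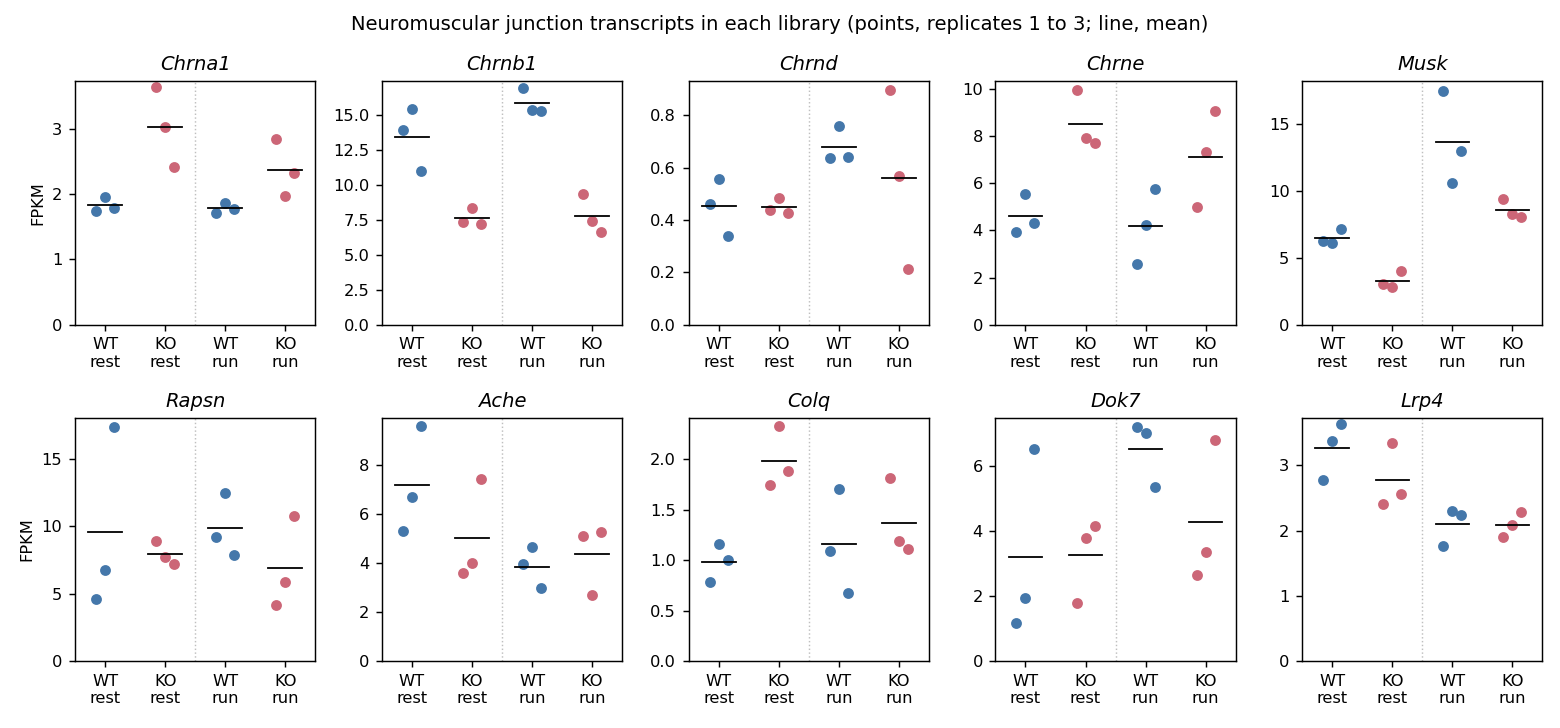
FPKM (vertical axis, from 0, scaled per gene) of each of the 10 junction genes in the 4 groups; points are the 3 libraries in replicate order, blue for wild type (WT) and red for knockout (KO), and lines are means, with rest and running on either side of the dotted line. The Chrnb1 points of the knockout lie at 6.64 to 9.39 FPKM, below all wild-type points at 11.0 to 16.9 FPKM.

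The beta subunit Chrnb1, present once in each receptor and the most abundant of the 4 subunit transcripts in wild type, passed in both tables. At rest wild-type values were 14.0, 15.4 and 11.0 FPKM, against 7.33, 8.39 and 7.19 FPKM in the knockout. The groups did not overlap, and Chrnb1 fell from 13.5 ± 2.24 to 7.64 ± 0.654 FPKM (SD, n = 3 each; log2 difference -0.73, SE 0.14, limma adjusted p = 0.0383). After running wild-type values were 16.9, 15.4 and 15.3 FPKM, against 9.39, 7.40 and 6.64 FPKM in the knockout. It fell from 15.9 ± 0.921 to 7.81 ± 1.42 FPKM (a log2 change of -0.95 with SE 0.14, limma adjusted p = 0.0228). In reads this was 463 against 203 at rest (95% Poisson intervals 422 to 507 and 176 to 233) and 482 against 233 after running (440 to 527 and 204 to 265), intervals that cover counting error only. These totals are not scaled to depth. At rest the relative FPKM of 1 read was 1.51, 1.202 and 1.48 in knockout, against 1, 1.203 and 0.98 in wild type. The read totals at rest therefore overstate the difference, which was 1.76-fold in mean FPKM.

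The epsilon subunit Chrne, which marks the adult form of the receptor, moved the other way at rest. Its wild-type values were 3.92, 5.55 and 4.29 FPKM, against 9.96, 7.90 and 7.70 FPKM in the knockout. All knockout values lay above all wild-type values, and Chrne rose from 4.59 ± 0.854 to 8.52 ± 1.25 FPKM (a log2 change of 0.77 with SE 0.15, limma adjusted p = 0.0425). After running wild-type values were 2.55, 4.23 and 5.77 FPKM, against 4.99, 7.32 and 9.04 FPKM in the knockout. Here the groups overlapped, and the log2 difference of 0.66 (SE 0.27) did not pass by limma (adjusted p = 0.248), although the q in the authors' deposited table was 0.0341. In the reference annotation Chrne overlaps the gene 4930544D05Rik, at 0 to 1.31 FPKM in these libraries, and with no strand stated in the sources used here reads of the 2 genes cannot be told apart.

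The alpha subunit Chrna1, which carries the acetylcholine binding site and occurs as a pair in each receptor, had a lower transcript level than the beta subunit in every library. At rest it held 1.74, 1.95 and 1.78 FPKM in wild type, against 3.63, 3.02 and 2.41 FPKM in the knockout. The groups did not overlap, yet the log2 difference of 0.50 (SE 0.15) did not pass by limma (adjusted p = 0.126), and the authors' deposited table gave a q of 0.0264. After running wild-type values were 1.71, 1.86 and 1.77 FPKM, against 2.83, 1.96 and 2.32 FPKM in the knockout. These were again apart, with a log2 difference of 0.27 (SE 0.15, limma adjusted p = 0.375; q of 0.294 in the authors' deposited table). The values rested on 32 to 66 reads per library.

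The delta subunit Chrnd stood at 0.339 to 0.556 FPKM in wild type and 0.428 to 0.486 FPKM in knockout at rest. After running it stood at 0.639 to 0.761 FPKM in wild type, with knockout values of 0.897, 0.570 and 0.212 FPKM. At rest these were 22 reads in wild type (95% Poisson interval 13.8 to 33.3) and 17 in the knockout (9.90 to 27.2), so the counts allowed differences of either sign. The fetal subunit Chrng was almost absent, with 2 reads in wild type and 1 in the knockout at rest, and 0 and 5 reads after running.

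The kinase Musk, which receives the agrin signal, was lower in the knockout in both tables. At rest it held 6.24, 6.10 and 7.17 FPKM in wild type, against 3.02, 2.84 and 4.01 FPKM in the knockout. It fell from 6.5 ± 0.578 to 3.29 ± 0.634 FPKM (a log2 change of -0.81 with SE 0.14, limma adjusted p = 0.0294). After running wild-type values were 17.5, 10.6 and 13 FPKM, against 9.41, 8.30 and 8.05 FPKM in the knockout. The groups were apart, but the log2 difference of -0.59 (SE 0.18) did not pass by limma (adjusted p = 0.14), with a q of 0.00762 in the authors' deposited table.

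Neither partner of Musk passed the test. Lrp4, the agrin receptor, measured 3.26 ± 0.436 FPKM in wild type, against 2.77 ± 0.5 FPKM in the knockout at rest, and 2.10 ± 0.296 and 2.09 ± 0.191 FPKM after running. The 95% intervals of its log2 difference by limma were -0.53 to 0.17 at rest and -0.34 to 0.33 after running. Dok7, the adaptor that activates the kinase from inside the fibre, held 1.19, 1.94 and 6.51 FPKM in wild type, against 1.80, 3.79 and 4.15 FPKM in the knockout at rest. Its interval at rest ran from -0.90 to 1.25, and its log2 difference moved from 0.17 with all libraries to 0.69 without wild-type library 3 (limma adjusted p = 0.284) and to -0.19 without wild-type library 1 (limma adjusted p = 0.842). After running Dok7 held 7.17, 6.98 and 5.35 FPKM in wild type, against 2.64, 3.35 and 6.77 FPKM in the knockout (a log2 difference of -0.58 with SE 0.27, limma adjusted p = 0.308), a difference that ran from -0.90 to -0.36 with 1 library left out.

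Rapsn, the scaffold that clusters receptors, also varied strongly between libraries of a group. At rest it held 4.63, 6.80 and 17.4 FPKM in wild type, against 8.90, 7.74 and 7.21 FPKM in the knockout. The high value in wild-type library 3 stood for 157 reads, against 41 and 50 in the other libraries of that group. The log2 difference was -0.06 (SE 0.39, limma adjusted p = 0.956), and 0.43 without that library (limma adjusted p = 0.268). After running Rapsn held 9.22, 12.4 and 7.85 FPKM in wild type, against 4.14, 5.89 and 10.8 FPKM in the knockout (a log2 difference of -0.51 with SE 0.30, limma adjusted p = 0.404). With 1 library left out it ran from -0.84 to -0.24.

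Of the cleft enzyme and its anchor, neither passed by limma. Ache held 5.33, 6.70 and 9.59 FPKM in wild type, against 3.62, 4.02 and 7.44 FPKM in the knockout at rest (a log2 difference of -0.47 with SE 0.27, limma adjusted p = 0.405), a difference that ran from -0.74 to -0.27 with 1 library left out. After running it held 3.97, 4.65 and 2.99 FPKM in wild type, against 5.13, 2.69 and 5.27 FPKM in the knockout. Colq held 0.788, 1.17 and 1.01 FPKM in wild type, against 1.74, 2.33 and 1.89 FPKM in the knockout at rest, with no overlap (a log2 difference of 0.59 with SE 0.15, limma adjusted p = 0.0879; q of 0.0337 in the authors' deposited table). After running the Colq groups overlapped, at 1.09, 1.71 and 0.674 FPKM in wild type, against 1.82, 1.2 and 1.11 FPKM in the knockout. The Colq values rested on 8 to 32 reads per library.

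Because each table alone had 3 libraries per genotype, the knockout differences of the tables were also averaged in a single limma fit over the 12 libraries, a comparison added after the values had been seen. In it 4 of 9 junction genes passed, where 14.8% of all 10194 genes did. Chrnb1 fell (mean log2 difference -0.84, SE 0.10, limma adjusted p = 0.000283), Musk fell (-0.70, SE 0.12, limma adjusted p = 0.00202), Chrne rose (0.72, SE 0.17, limma adjusted p = 0.0144) and Chrna1 rose (0.38, SE 0.10, limma adjusted p = 0.0221). Colq stood at 0.37 (SE 0.13, limma adjusted p = 0.0829). Rapsn, Ache, Dok7 and Lrp4 had intervals that included 0, the narrowest being that of Lrp4, from -0.30 to 0.12.

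**Figure D3:**
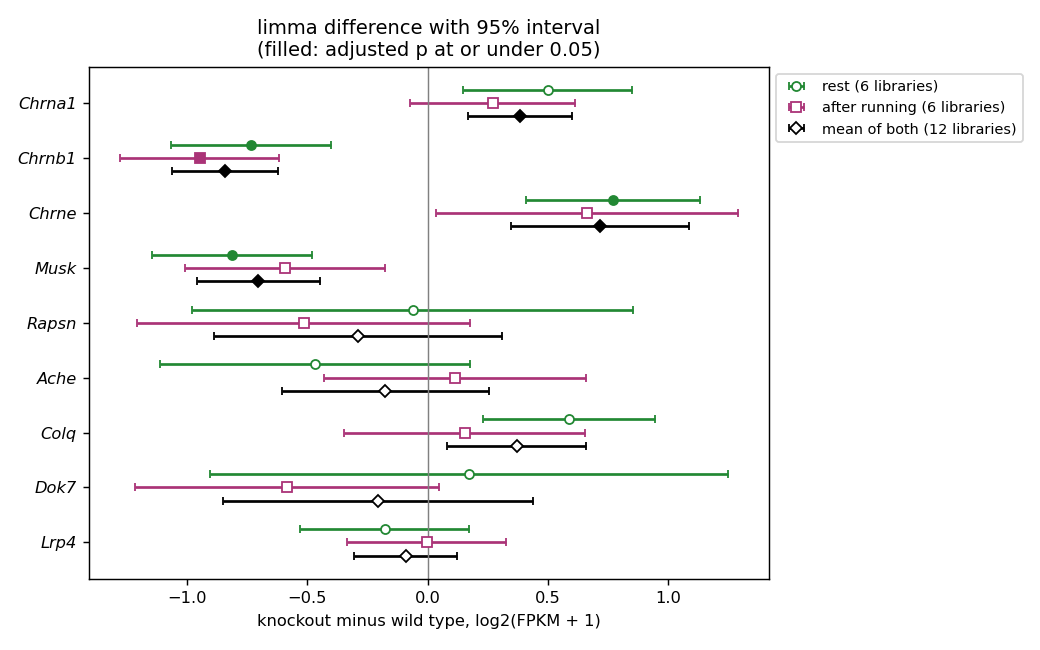
Knockout minus wild-type difference on the log2(FPKM + 1) scale (horizontal axis) with its 95% interval for the 9 tested junction genes, at rest (green circles), after running (purple squares) and as the mean of both (black diamonds); filled symbols passed at an adjusted p at or under 0.05. Chrnb1 and Musk lie left of 0 and Chrna1 and Chrne right of 0 in both tables, and the intervals of Rapsn and Dok7 are the widest.

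No junction gene showed a knockout difference that itself differed between running and rest. The test of that difference passed for 0 of 9 junction genes (0 at an unadjusted p under 0.05) and for 0 of all 10194 genes (0% of them; 501 at an unadjusted p under 0.05 by limma). The largest estimates were -0.75 for Dok7 (95% interval -2.05 to 0.54) and 0.58 for Ache (-0.28 to 1.44), and the interval for Chrnb1 ran from -0.65 to 0.23.

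The proportions of receptor subunits within each library were also computed, since a ratio does not depend on how libraries were scaled. These ratios were chosen after the values had been seen and are given as a description. Exact two-sided permutation tests of the log2 ratios gave p = 0.1 within each table for Chrne to Chrnb1 and for Chrna1 to Chrnb1. After Benjamini-Hochberg adjustment over 6 comparisons, which included Rapsn to Dok7, these stood at 0.15. With 3 against 3 libraries this test cannot give a p under 0.1, so it could not pass. The ratio of Chrne to Chrnb1 was 0.281, 0.360 and 0.390 in wild type and 1.36, 0.942 and 1.07 in knockout at rest. After running it was 0.151, 0.275 and 0.378 in wild type and 0.532, 0.988 and 1.36 in knockout. Every knockout library lay above every wild-type library, and the mean ratio was 3.27-fold higher in knockout at rest and 3.59-fold higher after running. The ratio of Chrna1 to Chrnb1 was 0.125, 0.127 and 0.162 in wild type and 0.495, 0.360 and 0.335 in knockout at rest. After running it was 0.101, 0.121 and 0.116 in wild type and 0.302, 0.265 and 0.350 in knockout.

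**Figure D4:**
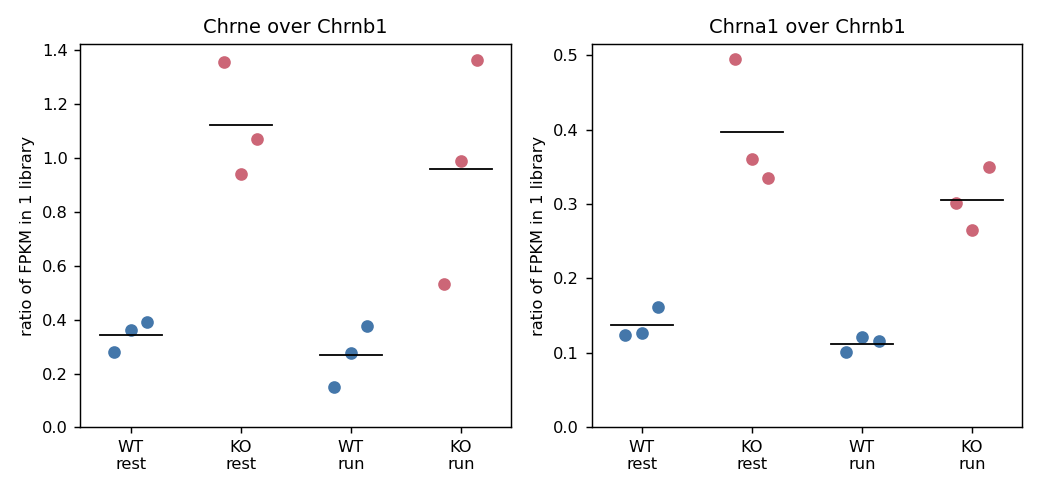
Ratio of the FPKM of Chrne to Chrnb1 (left) and of Chrna1 to Chrnb1 (right) in each library (points) with group means (lines), vertical axes from 0. In both panels the knockout points (red) lie above all wild-type points (blue) within rest and within running, with Chrne to Chrnb1 at 0.532 to 1.36 in knockout and 0.151 to 0.390 in wild type.

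The stretch of genome before the start of the genes that moved is shown because synaptic transcription is classically linked to the E-box (CANNTG, bound by myogenic factors; its pattern is the same on both strands) and the N-box (CCGGAA, or TTCCGG on the other strand, bound by Ets factors). RefSeq promoter entries of build GRCm38.p6 were matched for 6 of the 10 genes, whereas the expression tables were made on mm9. The 250 bases before the start are given 5′ to 3′ on the gene's strand for Chrnb1 (chr11:69795938-69796187, minus strand), Musk (chr4:58285712-58285961, plus strand), Chrne (chr11:70619195-70619444, minus strand) and Chrna1 (chr2:73580339-73580588, minus strand). Capitals mark each E-box and N-box, and no match of one overlaps the other. Chrna1, which passed only over both tables, was added after its values were seen.
Chrnb1: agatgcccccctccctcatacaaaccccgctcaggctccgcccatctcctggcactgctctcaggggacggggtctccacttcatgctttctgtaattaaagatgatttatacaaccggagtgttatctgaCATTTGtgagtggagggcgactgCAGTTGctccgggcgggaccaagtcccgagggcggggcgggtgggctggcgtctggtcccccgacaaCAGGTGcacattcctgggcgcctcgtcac
Musk: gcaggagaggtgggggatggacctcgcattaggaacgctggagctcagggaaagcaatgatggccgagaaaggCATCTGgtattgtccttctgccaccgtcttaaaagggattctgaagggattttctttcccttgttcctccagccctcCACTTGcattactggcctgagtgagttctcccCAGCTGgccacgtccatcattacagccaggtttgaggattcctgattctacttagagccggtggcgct
Chrne: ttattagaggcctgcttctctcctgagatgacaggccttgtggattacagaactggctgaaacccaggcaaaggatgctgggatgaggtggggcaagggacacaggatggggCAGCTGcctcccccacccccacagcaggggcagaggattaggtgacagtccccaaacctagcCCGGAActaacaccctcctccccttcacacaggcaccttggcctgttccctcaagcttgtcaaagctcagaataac
Chrna1: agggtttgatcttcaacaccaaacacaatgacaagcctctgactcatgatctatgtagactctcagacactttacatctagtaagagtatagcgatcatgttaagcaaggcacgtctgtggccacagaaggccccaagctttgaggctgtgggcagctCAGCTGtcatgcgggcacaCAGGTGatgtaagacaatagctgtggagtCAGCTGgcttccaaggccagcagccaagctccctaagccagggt
Chrnb1, Musk and Chrna1 each held 3 E-boxes and no N-box, and Chrne held 1 E-box and 1 N-box. Among the 32851 promoter entries of the same length 66.2% held an E-box, 12.2% held 3 or more and 12% held an N-box. The promoter entry of Ache held 1 E-box, and of the 2 entries of Dok7 1 held an E-box. A match of letters describes the sequence only.

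Levels at rest and after running stood in separate tables, and the sources used here do not say how these were scaled to each other, so levels were set side by side and not tested. The median log2 difference between the tables over all 10194 genes was -0.01 in wild type and -0.02 in knockout. Musk was higher after running in both genotypes, at 13.7 ± 3.52 against 6.5 ± 0.578 FPKM in wild type and 8.59 ± 0.722 against 3.29 ± 0.634 FPKM in knockout, ratios of 2.11 and 2.61 with no overlap of libraries. Lrp4 was lower after running in both genotypes, with ratios of 0.645 and 0.753 and no overlap. Ache in wild type was lower after running, at 3.87 ± 0.834 against 7.21 ± 2.17 FPKM, and Chrnd in wild type was higher, at 0.681 ± 0.0694 against 0.452 ± 0.108 FPKM, on 30 against 22 reads whose 95% Poisson intervals overlap (20.2 to 42.8 and 13.8 to 33.3). Of all genes 6.96% were higher after running without overlap and 8.76% lower in wild type, and 5.8% and 9.54% in knockout. Chrnb1, Chrna1 and Chrne overlapped between rest and running in both genotypes. Knockout muscle after running held Musk at 8.05 to 9.41 FPKM, above resting wild type at 6.10 to 7.17 FPKM.

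The junction genes did not vary as a block from library to library. After each group's mean had been taken off, Pearson correlations between the 45 gene pairs over the 12 libraries had a median of 0.02, with 6 pairs above 0.5, and are given as a description since the libraries share depth and tissue sampling. Rapsn and Dok7 had the highest correlation, 0.84, and Ache with Dok7 stood at 0.66. Lrp4 stood at 0.58 with Dok7 and at 0.53 with Rapsn. Chrnb1 correlated with Chrnd at 0.79 and with Rapsn at -0.77. Other strong negative pairs were Chrnb1 with Dok7 (-0.65), Chrnd with Rapsn (-0.65), Chrne with Musk (-0.61), Chrnd with Dok7 (-0.60) and Musk with Lrp4 (-0.51). Chrnd rested on only 3 to 14 reads per library, and the part of counting error in these correlations was not tested. The libraries highest in Rapsn were wild-type library 3 at rest, wild-type library 2 after running and knockout library 3 after running, and these were also the libraries with the highest summed myofibre markers of their groups, at 41413, 45182 and 40830 FPKM against 28444 to 39332 FPKM in the others of those groups. In the resting knockout group Rapsn was highest in library 1, which had the lowest myofibre sum, 30328 FPKM. The part of fibre RNA in the variation of Rapsn was not tested.

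**Figure D5:**
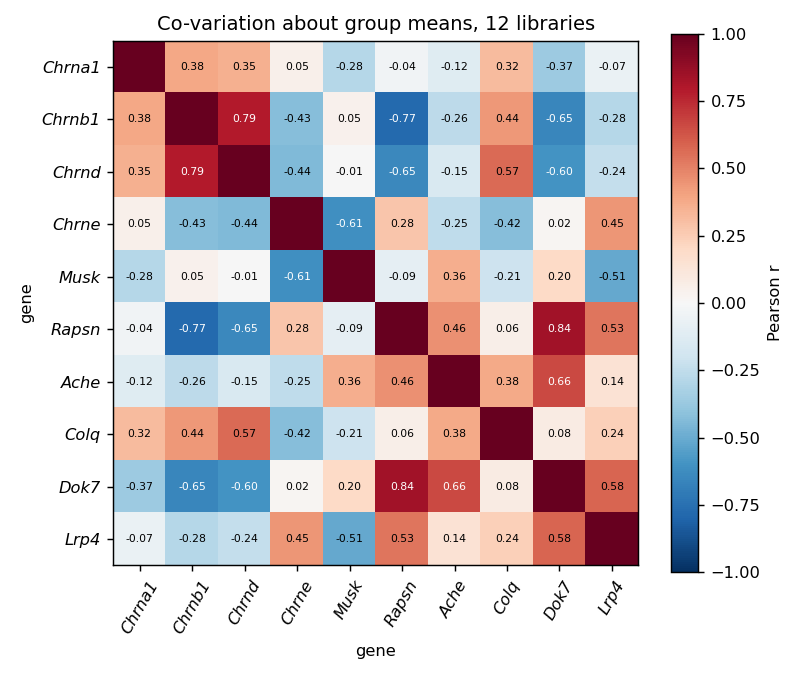
Pearson correlation of log2(FPKM + 1) between pairs of junction genes over the 12 libraries after removal of group means, from -1 (blue) to 1 (red), with the values printed in the cells. Rapsn, Dok7 and Ache correlate positively with each other, as does Lrp4 with each of them (0.58 with Dok7, 0.53 with Rapsn and 0.14 with Ache), while Rapsn and Chrnb1 stand at -0.77.

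Other genes of the junction were taken from lists, whose counts stand beside 3.65% of all genes called by limma at rest and 2.71% after running (10.8% and 9.57% by the authors' q). The median log2 difference over all genes was 0.0014 at rest and 0.0033 after running. Among 25 genes of signalling and clustering, 22 were tested at rest and 1 rose, the kinase Pak1, which acts on the actin cytoskeleton downstream of MuSK, from 10.2 ± 2.12 to 29.7 ± 0.670 FPKM (limma adjusted p = 0.00688). After running 0 of 20 passed by limma (5 at an unadjusted p under 0.05, and 1 by the q of the authors' deposited table), and the most abundant, the small GTPase Cdc42, measured 109 ± 9.50 and 99.3 ± 4.04 FPKM. The list's median log2 difference was -0.13 at rest and 0.0019 after running. In the synaptic basal lamina 1 of 9 fell by limma at rest, butyrylcholinesterase Bche, which like Ache breaks down choline esters, from 2.41 ± 0.135 to 1.19 ± 0.180 FPKM (limma adjusted p = 0.0498). At rest 2 genes of this list had an unadjusted p under 0.05, and the authors' q gave 1 higher and 1 lower. After running 0 of 10 passed by limma (2 at an unadjusted p under 0.05), and the synaptic laminin chain Lamb2 measured 17.3 ± 3.42 and 34.4 ± 9.15 FPKM (limma adjusted p = 0.0585; q of 0.00132 in the authors' deposited table). The median was -0.01 at rest and -0.04 after running.

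The dystrophin and utrophin complex, which ties the membrane to the cytoskeleton, had 2 of 11 tested genes higher and 0 lower at rest by limma, beside 3.65% called among all genes, and 3 higher by the authors' q. Dystrobrevin alpha, Dtna, rose by limma (adjusted p = 0.0194), with 55.9 ± 4.36 FPKM in wild type and 86.9 ± 1.97 FPKM without HDAC3. The sarcoglycan Sgcd rose from 67.4 ± 2.72 to 94.4 ± 4.28 FPKM (limma adjusted p = 0.0328). After running 1 of 11 rose, sarcospan (Sspn), from 17.3 ± 1.22 to 26.6 ± 1.99 FPKM (limma adjusted p = 0.0434), and the authors' q gave 1 higher and 1 lower. The list's median log2 difference was 0.17 at rest and 0.06 after running. Of 6 transcription factors linked to synaptic nuclei 4 were tested. At rest 0 passed by limma (1 at an unadjusted p under 0.05, and 1 in the authors' deposited table), with Gabpa at 10.1 ± 0.894 and 11.6 ± 0.368 FPKM. After running 1 rose, the Ets factor Etv5, from 2.68 ± 0.265 to 4.90 ± 0.433 FPKM (limma adjusted p = 0.0434). Of 5 glycosylation genes of congenital myasthenia 0 passed by limma in either table (1 at an unadjusted p under 0.05 in each), and 0 by the authors' q. The most abundant, Alg14, measured 8.29 ± 3.01 and 7.89 ± 1.29 FPKM in wild type and knockout at rest, and 8.95 ± 1.28 and 6.28 ± 0.264 FPKM after running (limma adjusted p = 0.136). The medians at rest and after running were 0.11 and 0.20 for the transcription factors and -0.06 and 0.0030 for the glycosylation genes.

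Of 15 genes that respond to denervation, 10 were tested at rest and 1 rose, the AMP deaminase Ampd3, from 2.07 ± 0.539 to 5.49 ± 0.678 FPKM (limma adjusted p = 0.0221). After running 1 of 11 fell, Dach2, a repressor acting on myogenin, from 4.21 ± 0.412 to 2.29 ± 0.140 FPKM (limma adjusted p = 0.0438). The authors' deposited table gave 3 higher and 0 lower at rest and 2 higher and 1 lower after running, where 10.8% and 9.57% of all genes passed. By limma 3.65% and 2.71% of all genes passed, and the list's median log2 difference was 0.20 at rest and 0.24 after running. The list does not state which way each gene responds to denervation, so this median has no direction in that respect.

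Markers of nerve cells were near the floor. Of 10 motor axon markers, 9 stayed under 1 FPKM in all libraries, the list summed to 0.862 to 2.14 FPKM per library, and Chat and Slc18a3, which define cholinergic neurons, were listed at 0 throughout. The 9 Schwann cell markers summed to 9.93 to 11.6 FPKM in wild type and 11.1 to 12.3 FPKM in knockout at rest, and to 8.85 to 12.3 and 8.73 to 10.3 FPKM after running. The 5 satellite cell markers summed to 8.43 to 9.42 FPKM in wild type and 4.14 to 5.64 FPKM in knockout at rest. After running they summed to 8.22 to 8.97 and 3.09 to 6.52 FPKM, and the genotypes did not overlap in either table. The 2 tested satellite cell markers had a median log2 difference of -0.58 at rest and -0.70 after running. The satellite cell sums were lower in knockout alongside Chrnb1 and Musk, and Pax7 was at most 0.383 FPKM. The part of satellite cells in the Chrnb1 and Musk differences was not tested. Of 6 tested immune markers 0 passed by limma at rest (0 at an unadjusted p under 0.05, and 2 lower by the authors' q), the most abundant being S100a8 with 1.79, 240 and 4.37 FPKM in wild type and 2.70, 2.15 and 2.65 FPKM in the knockout. After running 1 of 6 passed by limma (4 at an unadjusted p under 0.05, and 4 higher by the authors' q). This was Cd68, a macrophage marker, at 0.888 ± 0.545 FPKM in wild type and 4.26 ± 1.45 FPKM in the knockout (limma adjusted p = 0.0410). The immune list's median log2 difference was -0.35 at rest and 1.19 after running. Of 8 tested myofibre markers 1 rose by limma in each table, beside 3.65% of all genes called at rest and 2.71% after running. This was desmin, Des, from 499 ± 111 to 960 ± 120 FPKM at rest (limma adjusted p = 0.0326) and from 606 ± 91.8 to 1015 ± 87.3 FPKM after running (limma adjusted p = 0.0433). The list's median log2 difference was 0.07 and 0.12. Its sums overlapped, at 28444 to 41413 FPKM in wild type and 30328 to 39599 FPKM in knockout at rest. After running they were 31798 to 45182 and 30122 to 40830 FPKM.

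Apart from the immune list, the lists of other cell types held 0 genes that passed by limma in either table. At an unadjusted p under 0.05 these were 2 of 2 satellite cell markers in both tables, 1 of 6 fibroblast markers at rest, and 0 of the tested motor axon, Schwann cell, endothelial and adipocyte markers. By the authors' q 1 satellite cell marker was lower at rest and 2 after running, and 2 fibroblast markers were lower at rest. The fibroblast markers summed to 421 to 596 FPKM in wild type and 288 to 444 FPKM without HDAC3 at rest, and to 278 to 403 and 270 to 456 FPKM after running. The endothelial markers summed to 50.4 to 59.8 and 56.0 to 57.5 FPKM at rest and to 55.2 to 69.0 and 41.6 to 69.7 FPKM after running. The adipocyte markers summed to 4.47 to 7.69 and 2.57 to 10.1 FPKM at rest and to 2.81 to 8.49 and 3.35 to 6.57 FPKM after running. These 3 sums overlapped between genotypes in both tables. The most abundant genes of these lists did not pass by limma. The axonal Stmn2 measured 1.23 ± 0.268 and 1.31 ± 0.311 FPKM in wild type and knockout at rest and 1.09 ± 0.416 and 1.33 ± 0.374 FPKM after running. Mbp, of the Schwann cell list, measured 2.84 ± 0.746 and 3.21 ± 0.491 FPKM after running. Chodl, of the satellite cell list, measured 4.15 ± 1.10 and 2.64 ± 0.277 FPKM at rest and 4.29 ± 0.919 and 2.25 ± 1.07 FPKM after running. By the authors' q it passed after running (0.00762) but not at rest (0.075). Its knockout means were the lower ones in both tables, as for the summed satellite cell markers. The fibroblast gene Dcn measured 256 ± 101 and 211 ± 35.7 FPKM at rest and 199 ± 19.7 and 241 ± 73.8 FPKM after running. The endothelial Pecam1 measured 24.1 ± 2.85 and 25.8 ± 1.69 FPKM at rest and 31.0 ± 5.58 and 24.6 ± 7.09 FPKM after running, and the fat cell hormone Adipoq 3.99 ± 1.59 and 3.56 ± 2.68 FPKM at rest and 3.78 ± 2.45 and 3.53 ± 1.36 FPKM after running.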

How the data were processed

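RNA-seq of 12 quadriceps libraries was used; 4 GRO-seq libraries were not analysed here. The authors deposited FPKM per library in 2 tables, 1 for rest and 1 for running, with group means and their own p-values and q-values. TopHat2, Bowtie, Cuffdiff and HOMER on mm9 are named per the submitters' processing notes; the sources used here do not give versions, annotation, scaling or strand. The members, lists and tests were chosen with earlier results of these data known.

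Each library column was assigned by its genotype and number within its table, and 27 names turned into dates in the running table were left out. Genes with a mean of at least 1 FPKM over the 6 libraries of a table were fitted on the scale log2(FPKM + 1) by limma 3.58.1 (R 4.3.3), with a mean-variance trend and two-sided tests. This scale understates changes of low genes. Each table was fitted alone; the mean of both tables and their contrast used 4 group means over 12 libraries. The fits were tested on simulated data. At most 1 value above 0 was identical between any pair of libraries.

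Read steps came from genes under 0.5 FPKM: in each of 11 library pairs 22.0% to 24.2% of the compared genes fell at 1 shared ratio. A gene's reads are the smallest whole numbers that matched all 12 libraries within 0.1 reads (Ache up to 0.0517 off), with at most 400 reads in the lowest library; a common multiple cannot be told apart. No count test was run on them. Promoter matches used Python 3.11.15.

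All 10 members were described. From each other list up to 3 genes that passed, of lowest p, were named per table, or otherwise the most abundant; marker lists are also given by their sums, and 1 gene is not reported here. Protein sequences were not used here. Alternatives were other pseudocounts, filters, scaling, variance models and tests, a replicate block, a joint fit and leaving out each library.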

Additional observations from a re-analysis of the deposited data

How the results depend on the processing

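The directions of the knockout differences of Chrnb1, Musk, Chrne and Chrna1 at rest, after running and over both tables were the same in all alternatives run, and their calls within 1 table were not stable. The junction genes called at rest (3) became 0 without a filter, 0 with the replicate block, 0 to 1 with 1 library left out and 5 by the authors' q. Those called after running (1) became 0 without a filter, 0 to 1 with 1 library left out and 3 by the authors' q. All genes called at rest (383) became 98 without a filter, 36 with the replicate block, 636 with all 4 groups in 1 fit and 998 by the authors' q, and 19 to 208 with 1 library left out, the lowest without wild-type library 2. Those after running (281) became 53 without a filter, 114 with the replicate block, 568 with all 4 groups in 1 fit and 865 by the authors' q, and 44 to 73 with 1 library left out, the lowest without wild-type library 2. The 4 genes called over both tables became 2 at a minimum of 5 FPKM, which left Chrna1 and Musk untested.

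With 1 library left out, limma adjusted p at rest ran from 0.0454 to 0.152 for Chrnb1 (passing in 1 of 6 fits), 0.065 to 0.112 for Musk and 0.0909 to 0.117 for Chrne, and for Chrnb1 after running from 0.0275 to 0.0849 (passing in 1 of 6). Over both tables Chrnb1 passed in 19 of 19 alternatives, Musk in 18 of 18, Chrne in 18 of 19 and Chrna1 in 16 of 18. Without a mean-variance trend Chrne at rest had a limma adjusted p of 0.0512, and in the joint fit 0.0862.

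Differences near 0 changed sign. With 1 library left out the log2 difference ran from -0.42 to 0.43 for Rapsn and -0.19 to 0.69 for Dok7 at rest. After running it ran from -0.0222 to 0.363 for Ache, -0.0152 to 0.333 for Colq and -0.0855 to 0.0443 for Lrp4, and Lrp4 stood at 0.0036 with median-ratio scaling. It ran from -0.389 to 0.0559 for Dok7 over both tables and from -0.36 to 0.11 for the contrast of running and rest in Chrne. The cause was not tested.

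Deviations of same-numbered libraries correlated at 0.04, 0.05 and 0.05 at rest, where every wild-type library was closest to its own number. After running they correlated at 0.02, -0.25 and -0.09, and no wild-type library was closest to its own number. These values do not settle whether replicate numbers pair the libraries at rest. The main fits used no pairing. Depth limited Chrnd and Colq most.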

Other observations

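By a rule that ranked 5905 genes of at least 5 FPKM, the genes whose levels over the 12 libraries most resembled the mean log2 level of the 4 receptor subunits, each table centred on its own mean, were Eif2b3 (Pearson r = 0.86), Wac (0.86), Rnf121 (0.81), Psme2 (0.80) and Mrrf (0.77). That mean joins subunits that moved in opposite directions in knockout over both tables (Chrnb1 -0.84, Chrne 0.72 and Chrna1 0.38 in log2), and likeness to each single subunit was not computed. These are descriptions over 12 libraries that share depth and tissue sampling, and no test was made. Eif2b3, a subunit of a translation initiation factor, stood at 10.2 and 12.6 FPKM in wild type and knockout at rest and at 10.1 and 11.0 FPKM after running.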
